A study of Mus musculus with 4 samples.

Results

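Forkhead (Fox) genes encode transcription factors that share a winged-helix DNA-binding domain. The family was taken as the protein-coding autosomal genes whose symbol is Fox followed by a letter from a to s and a number. It held 41 of the 20364 autosomal protein-coding genes that could be placed with a strand. The family's 3 X-linked genes lie outside that rule. Around each start site, the peaks of accessible chromatin within 50 kb on either side were collected. They numbered 343 of the 99427 peaks of the E10.5 list and 153 of the 37548 peaks of the E11.5 list.

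The lists come from ATAC-seq, in which the Tn5 transposase cuts and tags accessible DNA. Wild-type mouse embryos gave 2 limb samples at E10.5 and 2 at E11.5, where E is the embryonic day, and each sample joined fore- and hindlimb cells. The protocol names the earlier stage E10, whereas the sample titles, followed here, name E10.5. The series concerns the timing of En1 in limb development. Its authors deposited 1 peak list for E10.5 and 1 for E11.5, each joining a pair of replicates, so no spread between replicates and no test of a stage difference could be had, and the depth behind each list is unknown.

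Some forkhead proteins can bind their sites in closed chromatin, and the FoxA proteins are the textbook pioneer factors. Subfamilies have divided their roles between tissues. FoxC and FoxF genes, Foxd1, Foxd2 and Foxl1 act in mesenchyme, the loose connective tissue precursor that fills the limb bud. FoxO proteins are held out of the nucleus by insulin and Akt signalling, and others pattern brain, gut, lens or thymus. A peak near a forkhead gene shows open chromatin in some of the cells. In lists made from whole limbs, strong accessibility in few cells and weak accessibility in many cannot be told apart.

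A peak within 1 kb of the start site is called a promoter peak, and any other peak of the window a distal peak. Of the 41 forkhead genes, 38 (92.7%) had a promoter peak in the E10.5 list, beside 67.8% of all autosomal protein-coding genes. An E11.5 promoter peak was found for 30 (73.2%), beside 61.2% of all genes. In the full lists, the 30 genes of the E11.5 list all had a promoter peak in the E10.5 list as well. The other 8 genes with an E10.5 promoter peak, or 19.5% of the family, had none in the E11.5 list, beside 6.98% of all genes. Foxi1, Foxn1 and Foxr1 had a promoter peak in neither list. At least 1 distal peak was found for 40 of 41 forkhead genes in the E10.5 list (85.6% of all genes) and for 37 in the E11.5 list (74.7% of all genes). The median number of distal peaks was 8 per forkhead gene in the E10.5 list and 3 in the E11.5 list, and over all genes it was 5 and 2. The E10.5 list is the longer one. When it was cut to as many peaks as the E11.5 list by signal, 34 forkhead genes had an E10.5 promoter peak, and when it was cut by −log10 p, 28 had one. Under both cuts Foxa2 had an E11.5 promoter peak only. Under the cut by −log10 p this also held for Foxf2, Foxb2 and Foxd3. The shares of all genes under these cuts were not counted.

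Each peak carries a signal value and a −log10 p-value given by the authors. The signal value grows with the length of a peak, as a sum over its bases would. Across peaks its Spearman correlation with width was 0.87 in the E10.5 list and 0.88 in the E11.5 list, and no peak lies under 200 in either. Among the members' strongest promoter peaks the median signal was 5635 in the E10.5 list (range 371 to 23249, 38 genes) and 2262 in the E11.5 list (range 383 to 11373, 30 genes). The medians over all genes with a promoter peak were 4822 and 3105. Signal values of the lists are set side by side below and were not tested against each other. Order among promoters was compared over the 12388 genes with a promoter peak in both lists, so that both orders run over the same genes.

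**Figure D1:**
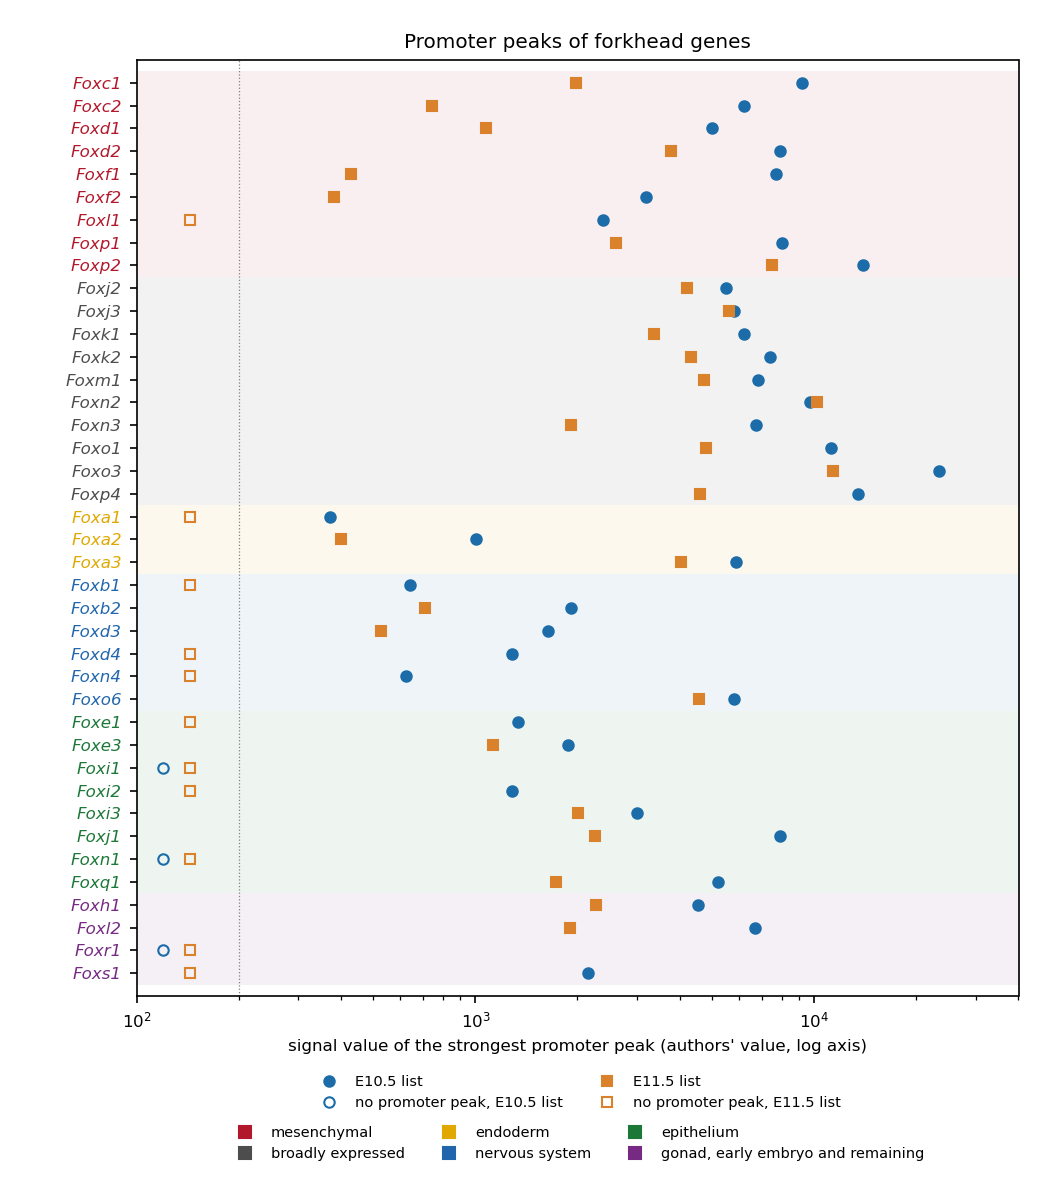
Signal value of the strongest promoter peak (horizontal log axis) for 40 of the 41 forkhead genes (rows, shaded and coloured by role), in the E10.5 list (circles) and the E11.5 list (squares). Open symbols at the left mark genes without a promoter peak and have no value, and the dotted line marks 200, which all peaks exceed. All 9 mesenchymal genes have an E10.5 value of at least 2377, and the E11.5 squares of Foxf1 and Foxf2 lie at 431 and 383.

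The mesenchymal genes were Foxc1, Foxc2, Foxd1, Foxd2, Foxf1, Foxf2, Foxl1, Foxp1 and Foxp2. All 9 had a promoter peak in the E10.5 list and 8 of them in the E11.5 list, where Foxl1 had none. The median signal of their strongest promoter peaks was 7681 in the E10.5 list and 1527 in the E11.5 list. The median width of these peaks was 3257 bp in the E10.5 list, beside 1439 bp for the promoter peaks of all genes. The E11.5 values were 1340 bp and 1172 bp.

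Foxc1 and Foxc2 encode close paralogues that act in the mesenchyme of the head, somites, skeleton and vessels. Foxc1 (gene 17300, chr13:31806646-31810635 in mm10, plus strand) had an E10.5 promoter peak of signal 9215 that spans 3257 bp, chr13:31805616-31808872. Its E11.5 promoter peak, chr13:31806203-31807559, had a signal of 1977. A further E11.5 peak of signal 348 lies 1.37 kb inside the gene, and the same E10.5 peak covers it. The Foxc1 window held 18 distal peaks in the E10.5 list and 6 in the E11.5 list, and all 6 overlap an E10.5 peak. The strongest distal peak of the E10.5 list lies 46.6 kb downstream, within Gmds, at chr13:31853200-31854906, with 6408. The strongest of the E11.5 list, with 1547, lies inside it. Among all genes, 97.9% had fewer distal E10.5 peaks than Foxc1.

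The 250 bases before the start of Foxc1, which lie wholly within its promoter peaks of both lists, and those of Foxf2, of which the E11.5 peak covers only a part, are printed here as examples of mesenchymal promoters. They come from the RefSeq promoter table (GRCm38.p6, which has the mm10 coordinates), are written 5′ to 3′ on the gene's strand, and have each CpG dinucleotide in capitals. Foxc1 is chr13:31806396-31806645 and Foxf2 is chr13:31625566-31625815, both on the plus strand.
Foxc1: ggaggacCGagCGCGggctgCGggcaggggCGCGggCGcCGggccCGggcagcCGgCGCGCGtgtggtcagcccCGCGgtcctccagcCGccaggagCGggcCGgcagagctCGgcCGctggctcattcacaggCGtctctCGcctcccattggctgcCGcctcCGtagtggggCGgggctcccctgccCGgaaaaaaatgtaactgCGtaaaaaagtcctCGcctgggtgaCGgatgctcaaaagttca
Foxf2: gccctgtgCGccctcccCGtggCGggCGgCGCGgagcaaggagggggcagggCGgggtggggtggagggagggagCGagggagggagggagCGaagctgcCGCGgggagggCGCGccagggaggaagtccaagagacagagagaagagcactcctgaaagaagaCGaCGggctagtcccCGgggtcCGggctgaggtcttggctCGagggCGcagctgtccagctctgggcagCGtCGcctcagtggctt
The Foxc1 stretch holds 29 CpG and the Foxf2 stretch 21.

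Foxc2 (gene 14234, chr8:121116171-121118895, plus strand) had a pair of E10.5 promoter peaks, with signals of 6215 at the start site and 1001 at 461 bp upstream. The E11.5 peak across the start site had 742, and no E11.5 peak overlapped the upstream one. Foxf1 (gene 15227, chr8:121084386-121088154, plus strand), which acts in lateral plate and gut mesoderm downstream of Hedgehog signalling, starts upstream of it on the same strand. The E10.5 promoter peak of Foxf1 spans 3609 bp (chr8:121082235-121085843) with a signal of 7681 and also covers the start of Fendrr, a long noncoding RNA gene. A pair of short E11.5 peaks stood in its place, chr8:121083339-121084066 and chr8:121084211-121084661, with signals of 431 and 224.

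Foxl1 (gene 14241, chr8:121127685-121130644, plus strand), known from the mesenchyme of the gut, lies next to Foxc2. It had E10.5 promoter peaks of signal 2377, at 147 bp inside the gene, and 829, at 471 bp upstream, and no E11.5 promoter peak. The nearest E11.5 peak, chr8:121125207-121125905, lies 1.78 kb upstream with a signal of 950. With promoters widened to 2 kb, Foxl1 counted as having a promoter peak in the E11.5 list. The windows of Foxf1, Foxc2 and Foxl1 overlap, so most of their distal peaks are the same peaks. Foxf1 and Foxc2 each had 19 distal E10.5 peaks and Foxl1 18, and in the E11.5 list they had 4, 5 and 7. The strongest distal peak of the cluster in the E11.5 list, chr8:121107796-121108788, had a signal of 1998 and lies at the start of Mthfsd. It was stronger than the E11.5 promoter peaks of Foxf1 and Foxc2. In the E10.5 list the strongest distal peak of the cluster outside its promoters was 46.2 kb downstream of Foxl1, chr8:121173922-121177018, with a signal of 8071. The E11.5 peak there had 539.

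Foxf2, the paralogue of Foxf1, acts in the mesenchyme of palate and gut. Foxf2 (gene 14238, chr13:31625816-31631406, plus strand) had the lowest E11.5 promoter signal of the family, 383, in the peak chr13:31625743-31626577. Its E10.5 promoter peak, chr13:31624924-31627368, had 3182. Of its 13 distal E10.5 peaks 1 overlaps an E11.5 peak. That peak lies 46.7 kb upstream and had 2671 in the E10.5 list and 444 in the E11.5 list.

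Foxd1 is known from the stroma of the kidney and Foxd2 from kidney mesenchyme. Foxd1 (gene 15229, chr13:98354245-98356705, plus strand) had a promoter signal of 4996 in the E10.5 list and 1077 in the E11.5 list. It had 6 distal E10.5 peaks and 5 distal E11.5 peaks. The strongest E11.5 one, with 3275, lies at the start of Btf3 36.7 kb upstream, where the E10.5 list had 3675. The strongest E10.5 one, chr13:98390355-98392326, lies between genes 36.1 kb downstream and had 4590, beside 922 in the E11.5 list. Foxd2 (gene 17301, chr4:114906280-114908898, minus strand) had the promoter peaks with signals of 7934 and 3775, which also cover the start of Foxd2os on the opposite strand. Its window held 14 distal peaks in the E10.5 list and 6 in the E11.5 list. The strongest in the E10.5 list lies 33.0 kb upstream with 4474 (648 in the E11.5 list), and the strongest in the E11.5 list is the promoter peak of Foxe3, with 1124.

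Foxp1 and Foxp2 encode repressors that form dimers with each other and act in skeletal precursors as well as in brain and lung. Foxp1 (gene 108655, chr6:98925342-99522746, minus strand) had an E10.5 promoter peak of 8049 over 3823 bp, and the E11.5 list had a pair of peaks there with 2590 and 1873. Its strongest distal peak lies within the gene, 36.4 kb from the start, at chr6:99483122-99486371, with a signal of 10603 in the E10.5 list, above that of its promoter. The strongest E11.5 peak within it had 1424. The promoter table lists other starts of Foxp1. The one 494 kb inside the outer start had peaks of 7375 and 2567, and the one 256 kb inside had 2143 in the E10.5 list and no E11.5 peak.

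Foxp2 (gene 114142, chr6:14901349-15441977, plus strand) had the strongest promoter peaks among the mesenchymal genes, with 13923 in the E10.5 list and 7503 in the E11.5 list. It had no distal E10.5 peak within 50 kb, and its 1 distal E11.5 peak, at 2.22 kb upstream, lies inside the wide E10.5 promoter peak. Foxp2 thus combined a strong promoter with the smallest number of distal E10.5 peaks in the family.

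**Figure D2:**
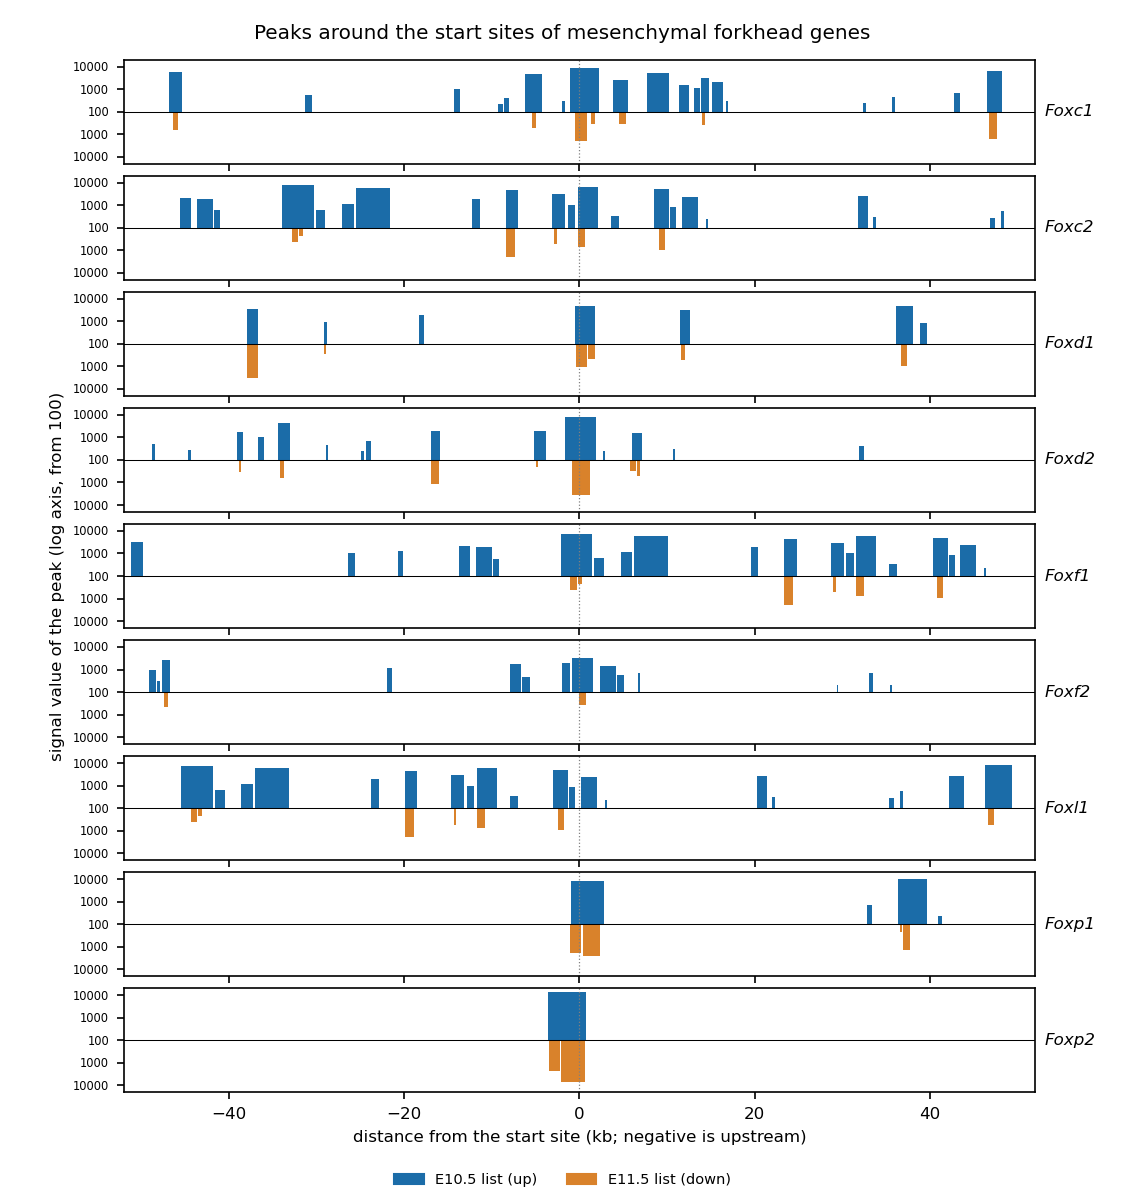
Peaks within 50 kb of the start sites of the 9 mesenchymal forkhead genes, with distance from the start site along the horizontal axis (kb, negative upstream). Bar height is the signal value on a log axis that starts at 100, upward for the E10.5 list and downward for the E11.5 list, and bar width is the peak's width, with very narrow peaks drawn a little wider. The windows of Foxc2, Foxf1 and Foxl1 share most of their peaks, at shifted distances. The only distal peak of the Foxp2 window is an E11.5 peak 2.22 kb from the start.

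Distal peaks had a higher median number around the mesenchymal genes than around the other members, without a test of the difference. The median was 14 per mesenchymal gene in the E10.5 list (range 0 to 19) against 7 for the other 32 members (range 1 to 20). The E11.5 median was 5 (range 1 to 7) against 2.5 (range 0 to 10). With the chromosome 8 cluster counted by the Foxf1 window alone, the mesenchymal medians were 13 and 4. The group was not uniform, since Foxd1, Foxp1 and Foxp2 had 6, 3 and 0 distal E10.5 peaks. At matched numbers of peaks by signal, the E10.5 medians were 5 and 3. The E11.5 medians were equal, at 1 and 1, among peaks with a −log10 p of at least 5, and at 2 and 2 when distal peaks at other promoters were left out. Counted as separate peaks, the mesenchymal windows held 75 distal peaks in the E10.5 list and 25 in the E11.5 list.

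**Figure D3:**
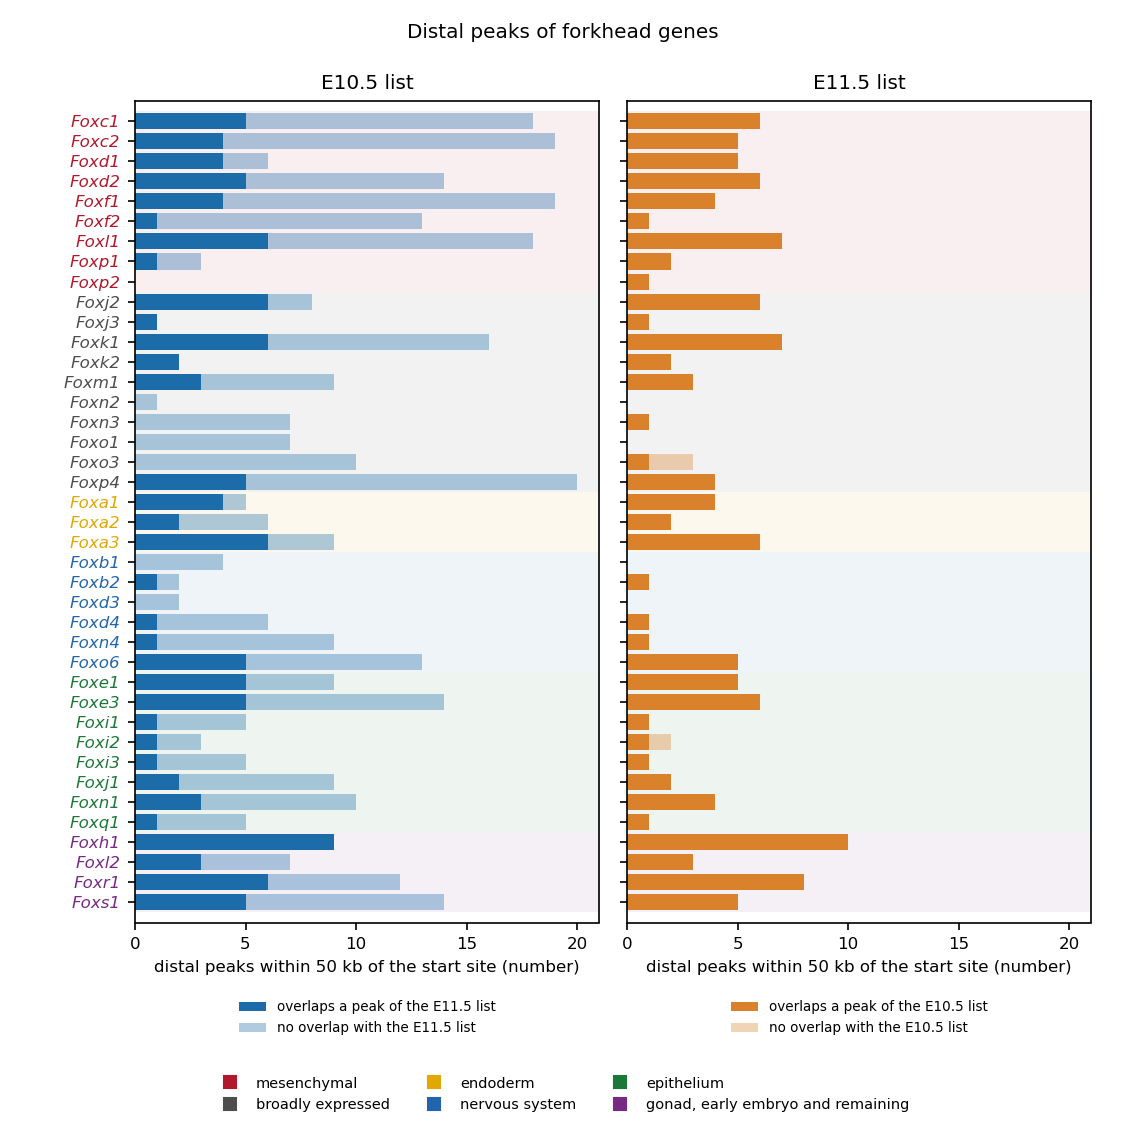
Number of distal peaks within 50 kb of the start site for 40 of the 41 forkhead genes, in the E10.5 list (left) and the E11.5 list (right), with gene names coloured by role. Dark bars count peaks that overlap a peak of the other list by at least 1 bp, and pale bars those that do not. Foxp4 has the most distal E10.5 peaks, 20, and pale bars in the right panel occur for Foxo3 and Foxi2 only.

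All 10 broadly expressed genes had a promoter peak in both lists, with median signals of 7121 and 4647. Foxo3, which encodes a FoxO factor of stress resistance and cell survival, had the strongest promoter peak of the family in both lists. The E10.5 peak, chr10:42273757-42279084, had a signal of 23249 and rank 80 of the list. The E11.5 peak, chr10:42274679-42278624, had 11373 and rank 122. Foxo1, its paralogue, had 11219 and 4803. Foxo6, the FoxO gene of the brain, had 5789 and 4575.

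Foxn2 had 9698 in the E10.5 list and 10191 in the E11.5 list, the higher value of the pair. Foxm1, which drives genes of the cell cycle, had 6836 and 4708, in peaks that also cover the start of Rhno1 on the other strand. Foxk1 and Foxk2 encode repressors with a forkhead-associated domain. Foxk1 had 6184 and 3355, and Foxk2 had 7407 and 4322. Foxp4, of the same subfamily as Foxp1 and Foxp2, had 13405 and 4587. Foxn3 had 3 promoter peaks in each list. Its peaks across the start site had 4174 and 1913, and the strongest E10.5 one, 550 bp inside the gene, had 6705. Foxj2 had 5481 and 4196, and Foxj3 had 5792 and 5610. For E11.5, 8 of these 10 values lay above that of every mesenchymal gene but Foxp2.

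Among the 12388 genes with a promoter peak in both lists, rank 1 has the strongest peak. By signal, the 8 mesenchymal genes had a median rank of 2851 in the E10.5 list. In the E11.5 list their median rank was 9731, and 8 of 8 ranked later there, beside 45.2% of all these genes. Foxf1 ranked 2958 and 11883, Foxc1 1802 and 8782, Foxc2 4681 and 11267, and Foxp2 434 and 793. The 10 broadly expressed genes had medians of 3549 and 3282.5, and 6 of 10 ranked later in the E11.5 list. By −log10 p the mesenchymal medians were 8467.5 and 10360.5, and 6 of 8 ranked later, beside 50.4% of all genes. The 2 that did not were Foxd2 and Foxp2. By signal per bp the medians were 10297.5 and 11156.5, and 5 of 8 ranked later, beside 49.2% of all genes. The later E11.5 rank of the mesenchymal promoters was thus large by signal and smaller by −log10 p. By signal per bp their medians lay late in both lists, and 5 of 8 is not far from the share of all genes. By −log10 p the broadly expressed medians were 7051 and 5119, and 4 of 10 ranked later. No test was made of either order, since each list is 1 pooled measurement.

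**Figure D4:**
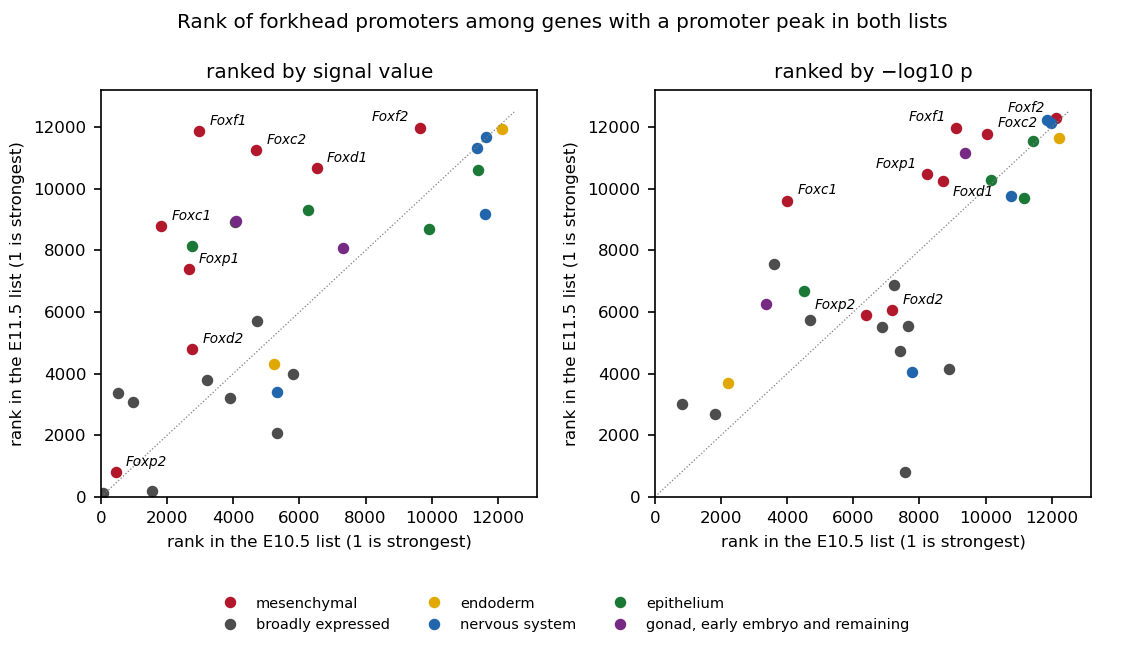
Rank of forkhead promoters in the E10.5 list (horizontal) and in the E11.5 list (vertical) among the 12388 genes with a promoter peak in both lists, by signal value (left) and by −log10 p (right). Each point is 1 of 30 forkhead genes, coloured by role, rank 1 is the strongest, and points above the dotted line of equal rank rank later in the E11.5 list. By signal, all 8 labelled mesenchymal genes lie above the line, and by −log10 p Foxd2 and Foxp2 lie below it.

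Of the 22 genes of other tissues, 19 had an E10.5 promoter peak, with a median signal of 1878. An E11.5 one was listed for 12, with a median of 1849 over those 12. In the endoderm group, whose members open chromatin in gut, liver and lung, Foxa2 had promoter signals of 1007 and 402. Foxa1 had 371 in the E10.5 list and no E11.5 promoter peak at its outer start. At another start of Foxa1 in the promoter table, 1.92 kb inside, peaks of 2583 and 1655 stood in the lists, so its chromatin was listed as accessible in both. Foxa3 had 5853 and 4039, in peaks that also lie within 1 kb of the start of Sympk, a gene of messenger RNA processing on the other strand. Which of the start sites these peaks belong to cannot be told apart.

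All 7 genes of the nervous system group had an E10.5 promoter peak and 4 an E11.5 one, with median signals of 1639 and 1251. Foxd3, which acts in neural crest, had 1639 and 527, and Foxb2 had 1912 and 709. Foxb1, Foxd4 and Foxn4 had E10.5 promoter signals of 641, 1281 and 625 and no E11.5 promoter peak.

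In the epithelium group 6 of 8 genes had an E10.5 promoter peak and 4 an E11.5 one. Foxj1, the regulator of motile cilia, had 7923 and 2251, and Foxq1, which acts in the hair shaft, had 5182 and 1730. Foxi3, a gene of placodes and hair follicles, had 2991 and 2013, and Foxe3, a lens gene that starts near Foxd2, had 1878 and 1124. Foxe1, a thyroid gene, and Foxi2 had 1332 and 1282 in the E10.5 list and no E11.5 promoter peak. Foxi1, which acts in inner ear and kidney, and Foxn1, the regulator of thymus epithelium and hair, had no promoter peak in either list. Their windows still held 5 and 10 distal E10.5 peaks and 1 and 4 distal E11.5 peaks. The strongest in the Foxn1 window lies at the start of Unc119 in both lists, with 4940 and 1055.

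Of the remaining genes, Foxl2, the regulator of ovarian granulosa cells, had promoter signals of 6668 and 1905. Its peaks also cover the start of Foxl2os. Foxh1, the partner of Smad proteins in Nodal signalling, had 4537 and 2273 in peaks shared with the start of Ppp1r16a. Foxs1, known from pericytes, had 2148 in the E10.5 list and none in the E11.5 list. Foxr1, a germ cell gene, had no promoter peak, and its window held the strongest distal peak of any member in the E10.5 list.

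The 8 genes with an E10.5 promoter peak only were Foxl1, Foxa1, Foxb1, Foxd4, Foxn4, Foxe1, Foxi2 and Foxs1. All 8 belong to the weaker E10.5 promoters. When all genes with an E10.5 promoter peak were ordered by its signal and cut into 10 equal parts, Foxa1, Foxb1, Foxd4, Foxn4 and Foxi2 fell in the weakest part, where 65.4% of all genes had no E11.5 promoter peak. Foxl1, Foxs1 and Foxe1 fell in the next part, where 19.4% had none. Members with an E11.5 promoter peak included Foxa2 in the weakest part and Foxb2, Foxd3 and Foxe3 in the next. In the third part 6.52% had none. In the full lists, no member above these parts lacked an E11.5 promoter peak. Over all genes, the share without an E11.5 promoter peak thus fell with E10.5 signal over the weakest parts. From part 4 to part 10 it lay between 0.652% (part 7) and 2.90% (part 4), without a steady fall. The part of E10.5 signal in the members' pattern was not tested. With the E10.5 list cut to the length of the E11.5 list by signal, 5 of the 8 still had an E10.5 promoter peak, and Foxa1, Foxb1 and Foxn4 had none in either list. With the same cut by −log10 p, 2 of the 8 did, Foxe1 and Foxs1. Among peaks with a −log10 p of at least 5 in both lists, 9 members had an E10.5 promoter peak only. Of the 8 above, 3 were among them, Foxl1, Foxe1 and Foxs1. The others were Foxc2, Foxf1, Foxf2, Foxb2, Foxd3 and Foxe3. The share of all genes with an E10.5 promoter peak only was not counted under this filter or under the cuts. Foxc2 and Foxf1 fell in parts 7 and 8 from the weakest, so the set and its weak E10.5 signal depend on the setting.

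Across all windows, 133 of the 343 E10.5 peaks (38.8%) overlapped an E11.5 peak by at least 1 bp. Promoter peaks did so in 32 of 45 cases (71.1%), beside 85.8% of all E10.5 promoter peaks. Distal peaks did so in 101 of 298 cases (33.9%), beside 25.1% of E10.5 peaks outside promoters within 50 kb of any start site. The sets differ in kind, since 33 of the 298 lie at promoters of other protein-coding genes, which the 25.1% leaves out. Of the 153 E11.5 peaks 150 (98.0%) overlapped an E10.5 peak. All 38 E11.5 promoter peaks did so (98.9% over all genes). So did 112 of 115 distal ones (97.4%), beside 87.4% of E11.5 peaks outside promoters within 50 kb of any start site. Of the 115, 29 lie at promoters of other protein-coding genes, which the 87.4% again leaves out. With the E10.5 list cut to the length of the E11.5 list by signal, the overlapping share was 70.4% for the E10.5 window peaks and 85.0% for those of E11.5. With overlap asked of at least 50% of both peaks, the shares were 23.3% and 52.3%. The shares around all genes were not counted under these settings, and those above hold for the full lists only.

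The distal E10.5 peaks that overlapped an E11.5 peak had a median signal of 2815, and the others had 664. Counted window by window, so that a peak in several windows counts in each, 30 of 110 distal E10.5 peaks of mesenchymal genes (27.3%) and 23 of 81 of broadly expressed genes (28.4%) overlapped an E11.5 peak. It was 11 of 39 (28.2%) in the nervous system group and 19 of 60 (31.7%) in the epithelium group. The share was 12 of 20 (60.0%) in the endoderm group and 23 of 42 (54.8%) in the group of gonad, early embryo and remaining genes. Of these distal peaks, 5 of 20 and 14 of 42 lie at promoters of other protein-coding genes, beside 15 of 110 in the mesenchymal and 6 of 81 in the broadly expressed group. The part of such promoters in the shares was not tested.

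The 3 E11.5 window peaks without E10.5 overlap were weak. A pair lies within Foxo3, at chr10:42244467-42244780 with a signal of 344 and at chr10:42265093-42265333 with 283. The other lies between genes 14.9 kb upstream of Foxi2, at chr7:135395363-135395514, with 220.2.

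Among the members outside the mesenchymal group, the windows richest in distal E10.5 peaks were those of Foxp4 with 20, Foxk1 with 16, Foxe3 and Foxs1 with 14 each and Foxo6 with 13. Their E11.5 numbers were 4, 7, 6, 5 and 5. The Foxe3 window shares its peaks with that of Foxd2, and its strongest distal peak is the Foxd2 promoter. The strongest distal E10.5 peak was 8735 at Foxk1 (chr5:142384307-142388005), 5061 at Foxs1 (chr2:152925015-152926341) and 6764 at Foxo6 (chr4:120252111-120254836), and these had 346, 810 and 838 in the E11.5 list.

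The strongest distal peak of all windows in the E10.5 list lies between genes 36.5 kb upstream of Foxr1, chr9:44477404-44480754, with a signal of 15529.9. It is overlapped by 2 E11.5 peaks, with 3985 and 317. Next came a peak between genes 7.59 kb upstream of Foxj2, chr6:122810129-122812589, with 13141 in the E10.5 list and 9861 in the E11.5 list, where it was the strongest of all windows. A peak 48.6 kb upstream of Foxp4, chr17:47973238-47977183, had 13014, and the strongest E11.5 peak within it had 1523. The fourth and the fifth lie at the starts of Narf, in the Foxk2 window (11234), and Mypop, in the Foxa3 window (10657). In the E11.5 list the peak at Narf had 6545 and was followed by those at Faim in the Foxl2 window (5138), at Cyhr1 and Kifc2 in the Foxh1 window (4592) and at Tulp3 in the Foxm1 window (4199). All 4 are promoters of other genes.

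Peaks at the edge of the promoter definition were few. An E11.5 peak of Foxn3 at 1000 bp was counted as a promoter peak, and an E11.5 peak of Foxd1 at 1001 bp as distal. With promoters narrowed to 500 bp, Foxd3, whose peaks lie at 732 bp and 737 bp inside the gene, had no promoter peak in either list.

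The promoters of the family were rich in CpG beside those of all genes. For 21 of the 41 members the promoter table holds the 250 bases before the outer start. Their median CpG number was 20 (range 3 to 48), beside 7 over the 9837 autosomal protein-coding genes of the table. Their median GC content was 65.6%, beside 53.6%. The 17 of them with a promoter peak in both lists had a median of 21 CpG, beside 16 for such promoters of all genes. Foxd4 and Foxi2, with an E10.5 promoter peak only, had 12 and 3, beside a median of 5 for such promoters. Foxr1 and Foxi1, with no promoter peak, had 15 and 4, beside a median of 1 for promoters of all genes without a peak.

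The ends of this range are printed here to show the difference in CpG, again from RefSeq with CpG in capitals, 5′ to 3′ on the gene's strand. Foxk2 (chr11:121259737-121259986, plus strand, promoter peak in both lists) has the most CpG of the 21, and Foxi2 (chr7:135410117-135410366, plus strand, E10.5 peak only) the fewest. Foxi1 (chr11:34208090-34208339, minus strand) has no promoter peak.
Foxk2: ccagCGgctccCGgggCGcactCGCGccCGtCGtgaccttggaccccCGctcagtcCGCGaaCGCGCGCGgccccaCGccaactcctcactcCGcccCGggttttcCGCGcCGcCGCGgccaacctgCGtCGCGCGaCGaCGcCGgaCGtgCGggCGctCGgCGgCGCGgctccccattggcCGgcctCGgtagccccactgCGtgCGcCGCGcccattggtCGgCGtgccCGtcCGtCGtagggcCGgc
Foxi2: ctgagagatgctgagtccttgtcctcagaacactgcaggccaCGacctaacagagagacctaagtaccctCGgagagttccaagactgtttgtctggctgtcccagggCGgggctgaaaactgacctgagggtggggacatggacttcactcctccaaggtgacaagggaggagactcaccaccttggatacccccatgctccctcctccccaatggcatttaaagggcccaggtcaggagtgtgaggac
Foxi1: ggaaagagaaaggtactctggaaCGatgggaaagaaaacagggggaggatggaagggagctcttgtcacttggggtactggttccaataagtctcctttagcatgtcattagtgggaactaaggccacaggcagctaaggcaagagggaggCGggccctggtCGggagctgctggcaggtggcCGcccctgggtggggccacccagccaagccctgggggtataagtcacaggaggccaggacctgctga
The Foxk2 stretch holds 48 CpG, that of Foxi2 holds 3 and that of Foxi1 holds 4.

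**Figure D5:**
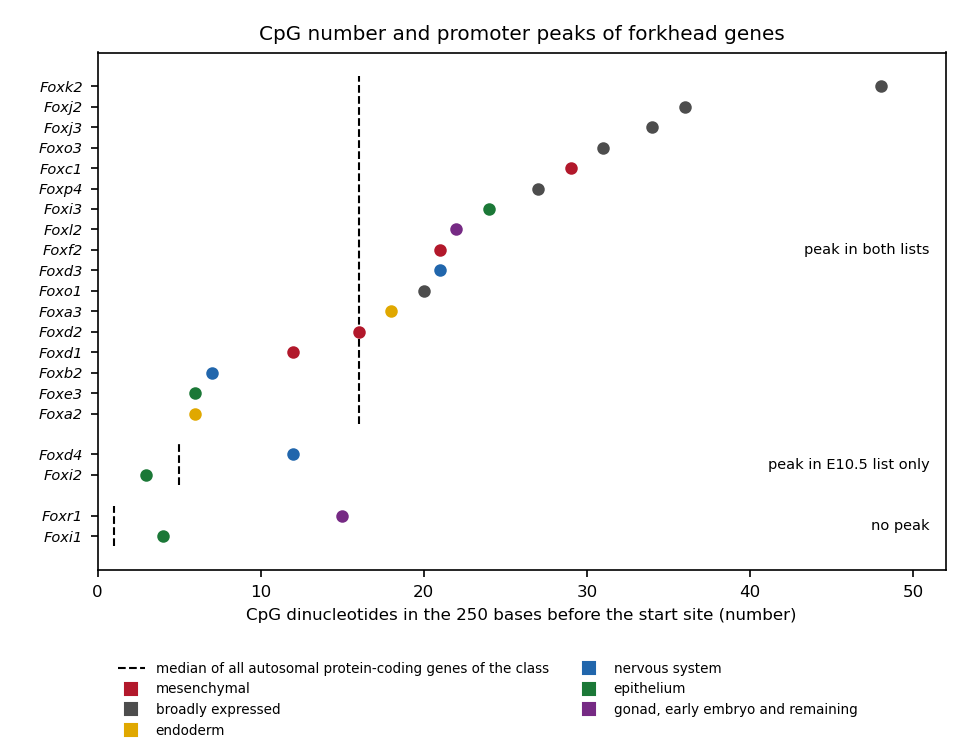
Number of CpG dinucleotides in the 250 bases before the start site (horizontal axis) for the 21 forkhead genes in the RefSeq promoter table, coloured by role and grouped by promoter peak. Dashed lines mark the median of all autosomal protein-coding genes of the same group, 16, 5 and 1. Foxk2 has 48 CpG, whereas Foxa2 and Foxe3 have 6 and still have a promoter peak in both lists.

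The same stretches were searched for the forkhead core motif GTAAACA, on both strands. A variant of it, GTAAATA, was searched likewise. No place can match both motifs. Neither was found in the 21 members. Over all promoters of the table, 2.86% held the former and 3.09% the latter. Among those of all genes with a peak in both lists, the class of 17 of the 21 members, the shares were 1.93% and 1.23%. At such low shares, finding none in 21 stretches does not show a lack of the motifs.

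Genes that act with forkhead factors were read in the same way. The list held 8 genes of the phosphatidylinositol kinase and Akt pathway that controls FoxO proteins, and 7 genes of Hedgehog signalling, which acts upstream of Foxf1, Foxf2 and Foxl1. Of these 15 genes, 14 had an E10.5 promoter peak and 12 an E11.5 promoter peak, beside 67.8% and 61.2% of all autosomal protein-coding genes. Pdpk1, a kinase that activates Akt, had neither, and Ihh, a Hedgehog ligand, had the E10.5 one only. The Hedgehog target genes Ptch1 and Gli1 had 4733 and 2371, and 15788 and 4173. Shh, the ligand made at the posterior margin of the limb bud, had 649 and 228.

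The labelled tissue was checked by promoter peaks of marker genes. All 10 limb mesenchyme markers had one in the E10.5 list (signals of 1769 to 22123) and 8 in the E11.5 list, where Tbx5 and Pitx1 had none. Markers of other cell types were also among the genes with promoter peaks, at 6 of 8 and 2 of 8 for surface ectoderm, 4 of 6 and 2 of 6 for endothelium, and 5 of 5 and 3 of 5 for muscle precursors. They stood at 4 of 5 and 2 of 5 for nerve and glia, 3 of 4 and 2 of 4 for endoderm, and 2 of 4 in both lists for the blood markers that could be placed. Over all autosomal protein-coding genes the shares were 67.8% and 61.2%, and several of these counts lie near or below them. The part of these cell types in the forkhead peaks was not tested.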

How the data were processed

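Per the labels' protocols, limbs were dissociated with trypsin and fixed with paraformaldehyde, and the chromatin was tagged with Tn5. The submitters' processing notes name cutadapt, Bowtie2, SAMtools, deepTools and Genrich and the build mm10. Settings, any Tn5 shift and the joining of replicates are not given in the sources used here. The deposited signal value was used as the authors gave it, to rank and describe peaks. Genrich, a peak caller, reports as signal a total of significance over the peak, so such a value depends on depth and width and is no coverage level. The deposited −log10 p-value of a peak was used for ranks and as a filter. Depth per sample is unknown.

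Gene positions came from RefSeq (GRCm38.p6). Strand came from the RefSeq promoter table (26 members) or, by symbol, from GENCODE M1 (15 members), whose coordinates were not used. The start site is the gene's outer end, and 98.5% of 20665 autosomal protein-coding genes had a strand. Overlap meant at least 1 bp. Counts were made in Python 3.11.15 with pandas 2.3.3 and NumPy 2.4.6, and the overlap search was tested on simulated data. Members, role lists, marker lists and alternatives were chosen with earlier results of these data known. The rule for coordinates covered mesenchymal genes, members with a promoter peak in 1 list only and the 5 other members with the most distal E10.5 peaks. It also covered the 5 strongest distal peaks of each list and E11.5 peaks without E10.5 overlap. Some of these peaks are described here without coordinates. Sequences of peaks and proteins were not used here, so the planned comparison of proteins was not run. The values of 1 member and of 2 related genes by name are not reported here, though counts over groups include them.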

Additional observations from a re-analysis of the deposited data

How the results depend on the processing

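Each list joins both replicates, so no replicate could be left out, and no paired analysis was possible because the lists carry no replicate numbers. The 18 results, which describe the lists without a test, were recomputed under 14 alternatives, some of them chosen after seeing the data (any listed start site, the ranks among promoters of both lists, the chromosome 8 cluster counted by Foxf1). Given here are values that moved by more than 1.5 times or, for shares of peaks, out of the 95% Wilson interval of the value in the report. With a −log10 p of at least 5 there were 175 distal E10.5 and 58 distal E11.5 peaks, the medians of mesenchymal and other members were 7 and 4 in the E10.5 list and 1 and 1 in the E11.5 list, and 5 mesenchymal genes had an E11.5 promoter peak. With the E10.5 list cut to 37548 peaks, 124 distal E10.5 peaks were left by signal and 124 by −log10 p, the medians were 5 and 3 or 7 and 2, and overlap was 70.4% and 85.0% or 71.2% and 83.0% (E10.5 and E11.5 peaks). With 20 kb windows there were 142 and 56 distal peaks and medians of 6 and 3 in the E10.5 list and 2 and 1 in the E11.5 list. With 100 kb there were 557 and 212, and the other members had medians of 14 and 4. A reciprocal overlap of 50% gave 23.3% and 52.3%. Without distal peaks at other promoters the mesenchymal E11.5 median was 2, equal to that of the other members. The mesenchymal median thus exceeded the other in 9 of 9 settings compared for it in the E10.5 list. In the E11.5 list it did so in 5 of 7, and it tied under this setting and under the −log10 p minimum. The chromosome 8 recount is not among these settings. They recount largely the same windows and are not independent of each other. The members' strongest promoter peaks lay at a median of 8.07% from the top of the E10.5 list by signal, 26.1% by signal per bp and 16.4% by −log10 p. In the E11.5 list it was 25.0% by signal and 37.8% per bp. Among promoters of both lists, the mesenchymal E10.5 median of 2851 became 10297.5 per bp and 8467.5 by −log10 p. The broadly expressed medians of 3549 and 3282.5 became 6309.5 and 5696 per bp, and 7051 and 5119 by −log10 p. An absent peak may lie under the calling threshold at the unknown depth of its list.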

Other observations

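The 3 X-linked forkhead genes lie outside the autosomal rule and were read in the same way. Foxo4, the X-linked FoxO gene, had a promoter peak in both lists, with signals of 5047 in the E10.5 list and 2999 in the E11.5 list, and 6 and 5 distal peaks. Foxp3, the regulator of regulatory T cells, had no promoter peak in either list, and its window held 3 and 2 distal peaks, the strongest with 4780 and 3817. Foxr2 had no promoter peak either, as was found for its autosomal paralogue Foxr1, and had 1 distal peak in each list, with 3243 and 2967.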
